A study of Rattus norvegicus with 6 samples.

Results

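The genes described here are Nfe2l2, which encodes the transcription factor NRF2, and 8 of its known targets in glutathione, thioredoxin, heme and quinone metabolism: Slc7a11, Gclc, Gclm, Gsr, Txnrd1, Srxn1, Hmox1 and Nqo1. They were taken by name as the rows of the expression table whose array annotation gave exactly 1 symbol, and all 9 were found, each on a single row, among 14324 genes in all. The arrays measured RNA from day 1 cultures and from day 0 rings, 3 arrays per group. Day 1 cultures were rings of aorta from male Fisher 344 rats aged 1 to 2 months, kept in collagen gel in serum-free EBM medium for 1 day. Day 0 rings came fresh from rats of the same strain, sex and age. Each array carried RNA pooled from 4 to 6 rings or cultures. Arrays are labelled as biological replicates, but it is not stated if animals contributed to more than a single pool; p-values therefore reflect only how much these pools varied, part of which may be technical.

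NRF2 is held at a low level in resting cells by KEAP1, an adaptor that passes it to a ubiquitin ligase. Electrophiles and oxidants modify cysteines of KEAP1, and NRF2 then escapes breakdown, pairs with a small MAF protein and binds antioxidant response elements in its target genes. BACH1, a repressor that heme displaces, competes for the same elements and is best known for silencing Hmox1. In the vessel wall the targets are known for protection against oxidants, heme and reactive aldehydes.

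The core letters TGACNNNGC were searched as those of antioxidant response elements. Promoters of 3 target genes are shown because those letters, or the related AP-1 letters TGAGTCA, lie in them. RefSeq windows of assembly GRCr8, from 250 bases before to 50 after the annotated start, were matched for 7 of the 9 genes (8 windows, Txnrd1 having 2). Hmox1 and Gsr had no window. Both strands were searched for these exact letters, and the letters found are in capitals. Elements outside the windows were not looked for.
Gclm (chr2:213031885-213032184, plus strand): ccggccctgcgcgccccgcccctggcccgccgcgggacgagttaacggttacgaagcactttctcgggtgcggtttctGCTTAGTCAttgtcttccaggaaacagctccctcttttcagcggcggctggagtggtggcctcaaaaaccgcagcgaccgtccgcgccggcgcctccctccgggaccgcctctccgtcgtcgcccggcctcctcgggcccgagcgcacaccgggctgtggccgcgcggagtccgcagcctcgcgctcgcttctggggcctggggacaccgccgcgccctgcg
Txnrd1 (chr7:22755855-22756154, minus strand): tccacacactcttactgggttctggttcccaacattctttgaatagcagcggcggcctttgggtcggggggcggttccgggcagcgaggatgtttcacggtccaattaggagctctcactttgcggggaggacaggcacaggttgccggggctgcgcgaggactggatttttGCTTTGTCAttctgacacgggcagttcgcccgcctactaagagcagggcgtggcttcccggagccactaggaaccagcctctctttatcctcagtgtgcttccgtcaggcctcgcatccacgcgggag
Srxn1 (chr3:161064562-161064861, plus strand): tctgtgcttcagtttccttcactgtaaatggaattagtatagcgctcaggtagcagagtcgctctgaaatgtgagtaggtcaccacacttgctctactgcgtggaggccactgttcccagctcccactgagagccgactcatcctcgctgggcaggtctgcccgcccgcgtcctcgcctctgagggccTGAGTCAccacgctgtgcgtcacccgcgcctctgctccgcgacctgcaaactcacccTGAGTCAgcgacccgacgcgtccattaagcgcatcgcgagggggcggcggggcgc
The capitals in Gclm and Txnrd1 are the core on the reverse strand, beginning 172 and 78 bases before the start. In Srxn1 the AP-1 letters begin 62 and 5 bases before it. The nearer ones, with the gc that follows them, differ from the core only in a G in place of its C. Nfe2l2 held the core too, after its start. The windows of Slc7a11, Gclc and Nqo1 and the other Txnrd1 window held neither set of letters. Of all 33469 rat windows, 12.1% held the core and 4.63% the AP-1 letters. A match is a description of letters and does not show that a factor binds.

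All 9 genes were higher after 1 day of culture. By limma with Benjamini-Hochberg adjustment over all genes at a threshold of 0.05, 9 of 9 rose, while 27.6% of all tested genes rose. For 6 of the 9 the rise was 2-fold or more, against 4.13% of all genes. In each of the 9 genes every day 1 array stood above every day 0 array, a separation found in 31.4% of all genes. The median log2 change was 1.22 over the 9 genes and -0.01 over all genes. The genes differed widely in size of change, from 39.1-fold for Slc7a11 to 1.21-fold for Gclm.

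**Figure D1:**
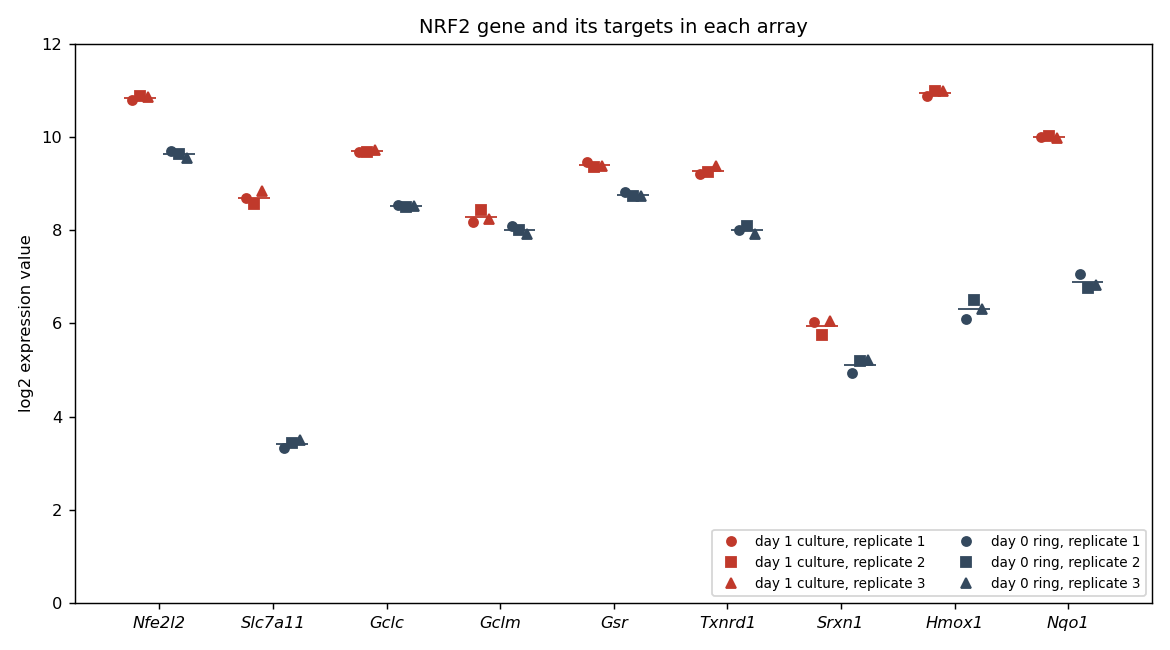
Log2 expression values (vertical axis) of the 9 genes in each array, day 1 cultures in red left of day 0 rings in blue, with a marker shape for each replicate number and a line at the group mean. The groups do not overlap in any of the 9 genes; the gap is widest in Slc7a11 and narrowest in Gclm. Levels of different genes come from different probes and are not comparable with each other.

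The NRF2 gene itself rose. Nfe2l2 had log2 values of 10.79, 10.89 and 10.87 in day 1 cultures, against 9.71, 9.63 and 9.56 in day 0 rings. The arrays of each group lay close together and the groups were far apart. The change was 1.22 ± 0.07 on the log2 scale, or 2.32-fold, with a limma adjusted p of 2.91e-06. Here and below, ± gives the moderated standard error of limma (n = 3 per group). It draws the variance of each gene toward a value common to all genes.

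The glutathione genes spanned the smallest and the largest change. Slc7a11 encodes the light chain of the cystine transporter xCT, which brings in the cysteine that limits glutathione synthesis. It had log2 values of 8.70, 8.56 and 8.84 in day 1 cultures, against 3.32, 3.43 and 3.49 in day 0 rings. Fresh rings thus had values well under the array medians of 5.87 to 5.95. The log2 change was 5.29 ± 0.09 (limma adjusted p = 3.28e-08) and ranked 3 of 14324 genes by size of rise, falls not counted. Array values near the dim end compress differences, so the 39.1-fold change may understate the change in RNA.

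The 2 subunits of glutamate-cysteine ligase, the enzyme of the first and rate-limiting step of glutathione synthesis, differed in the size of their change. Gclc, the catalytic subunit, had log2 values of 9.69, 9.68 and 9.73 in day 1 cultures, against 8.54, 8.50 and 8.53 in day 0 rings. Both groups were tight, and the change was 1.18 ± 0.06, or 2.26-fold (limma adjusted p = 1.50e-06). Gclm, the modifier subunit, which raises the activity of the catalytic one, had log2 values of 8.18, 8.43 and 8.24 in day 1 cultures, against 8.09, 8.01 and 7.92 in day 0 rings. The lowest culture lay just 0.09 above the highest ring. The Gclm change of 0.28 ± 0.08 (limma adjusted p = 0.0269) is the least firm of the 9. Quantile normalization took Gclm to 0.17 and off the list of called genes (adjusted p = 0.129). Leaving out day 0 replicate 2 (adjusted p = 0.0621), day 0 replicate 3 (adjusted p = 0.0875) or day 1 replicate 2 (0.20, adjusted p = 0.0821) also ended its call.

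Gsr, glutathione reductase, returns oxidised glutathione to its reduced form with NADPH. Its log2 values were 9.46, 9.36 and 9.37 in day 1 cultures and 8.81, 8.73 and 8.73 in day 0 rings. The spread within a group was small beside the change of 0.64 ± 0.06, or 1.56-fold (limma adjusted p = 7.19e-05).

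Both thioredoxin genes rose. Txnrd1 encodes the cytosolic thioredoxin reductase, a selenoprotein that keeps thioredoxin reduced. Its log2 values were 9.20, 9.26 and 9.37 in day 1 cultures and 8.01, 8.09 and 7.93 in day 0 rings, a change of 1.27 ± 0.07, or 2.41-fold (limma adjusted p = 4.34e-06). Srxn1 encodes sulfiredoxin, which repairs over-oxidised peroxiredoxins. Its log2 values were 6.03, 5.75 and 6.05 in day 1 cultures and 4.94, 5.20 and 5.21 in day 0 rings. Its change of 0.83 ± 0.11 (1.78-fold) had the widest interval relative to its size after Gclm (0.58 to 1.08, limma adjusted p = 4.06e-04). The ring values of Srxn1 lay under the array medians, so its change may be understated.

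Hmox1 encodes the inducible heme oxygenase, which cleaves heme to biliverdin, carbon monoxide and iron. It had log2 values of 10.88, 10.99 and 10.99 in day 1 cultures, against 6.09, 6.51 and 6.31 in day 0 rings. The cultures were nearly identical and the rings more spread, with an SD of 0.06 on day 1 and 0.21 on day 0. The change was 4.65 ± 0.11, or 25.1-fold, and ranked 8 of 14324 genes by size of rise (limma adjusted p = 7.28e-08).

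Nqo1 encodes the quinone reductase that converts quinones to hydroquinones in a single 2-electron step and is the usual readout of NRF2 activity. It had log2 values of 10.00, 10.02 and 9.98 in day 1 cultures, against 7.05, 6.76 and 6.83 in day 0 rings. The cultures differed by less than the rings did. The change was 3.12 ± 0.08, or 8.69-fold, and ranked 28 of 14324 genes by size of rise (limma adjusted p = 1.23e-07).

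**Figure D2:**
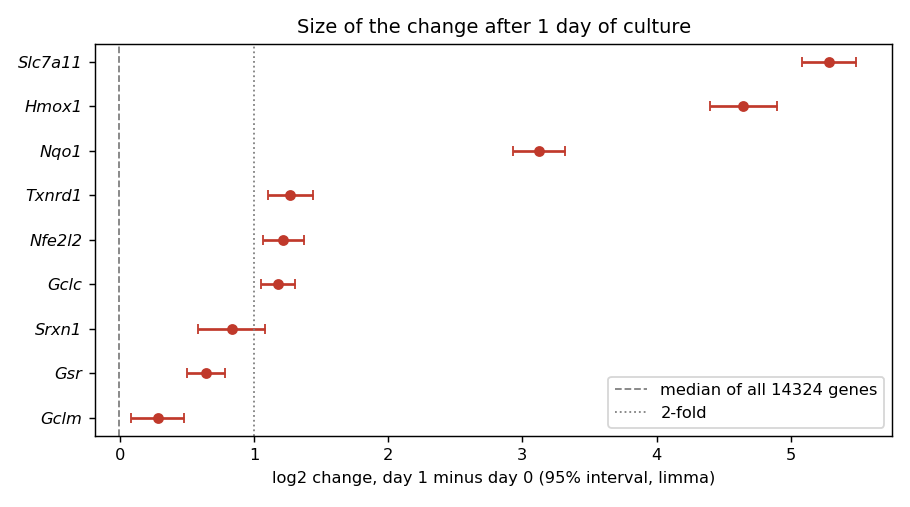
Log2 change, day 1 minus day 0 (horizontal axis), of each gene with its 95% interval from limma, in order of size. Slc7a11, Hmox1 and Nqo1 stand apart at 3.12 and above; the other 6 lie between 0.28 and 1.27.

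In order of change, Slc7a11 (95% interval 5.08 to 5.49), Hmox1 (4.40 to 4.90) and Nqo1 (2.93 to 3.31) had intervals that overlapped with no other member. Txnrd1 (1.10 to 1.44), Nfe2l2 (1.06 to 1.37) and Gclc (1.05 to 1.30) overlapped with each other, so their order is not resolved. The Srxn1 interval overlapped with those of Nfe2l2, Gclc and Gsr (0.50 to 0.78), but not with those of Txnrd1 or Gclm (0.08 to 0.47). No array was uniformly high. Among day 1 arrays, replicate 1 was the highest in 1 gene, replicate 2 in 3 and replicate 3 in 5. Among day 0 arrays, replicate 1 was the highest in 5 and each of the others in 2. SDs of the 9 genes ranged from 0.02 to 0.17 on day 1 and from 0.02 to 0.21 on day 0.

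Members other than Srxn1 were also set against a partner gene within the same array, to ask whether partners changed by unequal amounts. Txnrd1 and Nfe2l2 were each in more than 1 of the 8 pairs. The pairs were chosen with earlier results known, and the share for other gene pairs was not computed. Where the partner changed little, as with Hmox2, Nqo2 and Keap1, separation of the groups largely restates the change of the member. In all 8 pairs the 3 day 1 values lay apart from the 3 day 0 values. The exact two-sided permutation p was 0.10 for each, 0.10 after Benjamini-Hochberg adjustment, which is the smallest p that 3 against 3 arrays allow and so cannot reach the threshold. Gclm minus Gclc was -1.50, -1.25 and -1.49 on day 1, against -0.45, -0.49 and -0.61 on day 0, a shift of -0.90 toward the catalytic subunit. Slc7a11 gained 4.18 log2 units over Slc3a2, its heavy chain, which itself rose by 1.11 ± 0.06; the low ring values of Slc7a11 may make that gain an understatement. Hmox1 gained 4.50 over Hmox2, the constitutive heme oxygenase, which was at 0.15 ± 0.09 (limma adjusted p = 0.216). These differences are shifts of a ratio within an array and not ratios of RNA amounts, since probes differ.

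Among reductases, Txnrd1 gained 0.77 over its mitochondrial relative Txnrd2 (0.50 ± 0.08, limma adjusted p = 0.00171) and 0.63 over Gsr. Nqo1 gained 3.31 over Nqo2, a quinone reductase that uses another cofactor, which was at -0.19 ± 0.07 (limma adjusted p = 0.0516). The regulator Nfe2l2 gained 0.68 over its relative Nfe2l1 (NRF1) and 1.25 over Keap1.

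**Figure D3:**
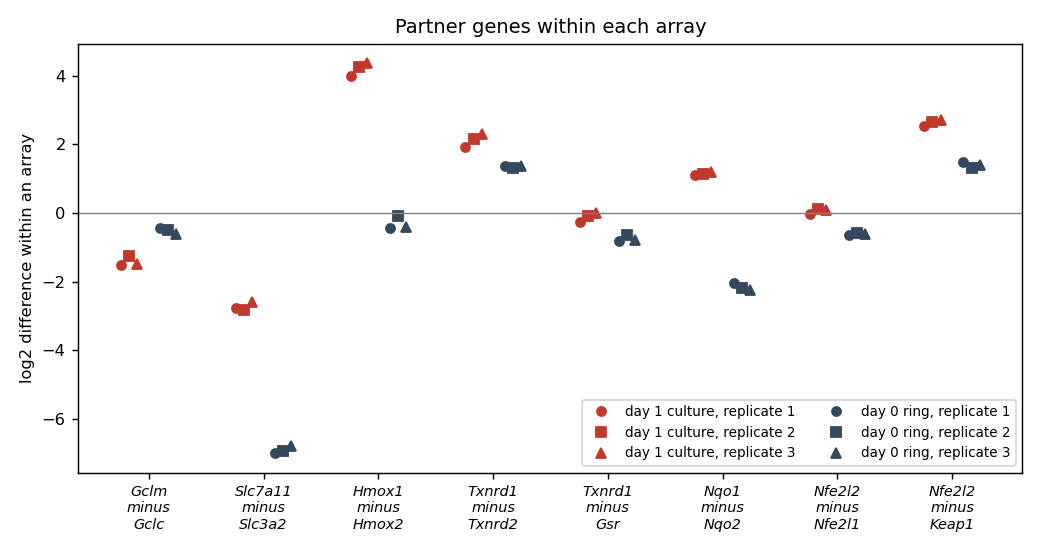
Log2 value of one gene minus that of its partner in the same array (vertical axis), for 8 pairs, day 1 cultures in red left of day 0 rings in blue, with a marker shape for each replicate number. The groups do not overlap in any of these pairs, which were chosen with earlier results known. The shift was 4.50 for Hmox1 over Hmox2 and 4.18, possibly understated, for Slc7a11 over Slc3a2. Of the 8 pairs only the Gclm pair shifts down.

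The rest of the pathway was followed in 6 lists that do not hold the 9 genes. Of their 82 measured genes 47 rose (57.3%, against 27.6% of all genes) and 16 fell (19.5%, against 20.7% of all genes), with a median log2 change of 0.40 against -0.01 for all genes. Among regulators 8 of 15 rose and 3 fell (median 0.30). The competitor Bach1 had log2 values between 8.94 and 9.05 in day 1 cultures, against 7.44 to 7.73 in day 0 rings, a change of 1.42 ± 0.08. Maff, a small MAF partner, rose by 1.30 ± 0.08 and Sqstm1, an autophagy receptor that captures KEAP1, by 1.18 ± 0.07. Pgam5, a mitochondrial phosphatase bound by KEAP1, rose by 0.98 ± 0.06. Nfe2l1 rose by 0.53 ± 0.06, while Bach2 fell by 0.85 ± 0.14.

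Keap1 had log2 values of 8.26, 8.23 and 8.15 in day 1 cultures, against 8.24, 8.33 and 8.17 in day 0 rings. The groups overlapped, and the difference of -0.03 ± 0.07 (limma adjusted p = 0.746) was smaller than the spread and changed sign with median centring (0.019). Its 95% interval, -0.19 to 0.13, did not reach the change of Nfe2l2.

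In the glutathione supply list 7 of 12 measured genes rose and 1 fell (median 0.52), where 27.6% of all genes rose and 20.7% fell. Slc1a5, a glutamine transporter, rose 2.83-fold. On the log2 scale glutathione synthetase Gss rose by 1.13 ± 0.07, Slc3a2 by 1.11 ± 0.06 and Cth, which makes cysteine from cystathionine, by 1.01 ± 0.07. The neutral amino acid transporter gene Slc1a4 fell by 0.95 ± 0.09.

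In the thioredoxin and peroxiredoxin list 10 of 16 rose and 4 fell (median 0.39), where 27.6% of all genes rose and 20.7% fell. Of the 16 only 1 rose at least 2-fold, as did 4.13% of all genes. That gene was Glrx, the cytosolic glutaredoxin, at 1.52 ± 0.06. Prdx6, a peroxiredoxin that draws on glutathione, rose by 0.98 ± 0.10, thioredoxin Txn1 by 0.86 ± 0.06 and Prdx5 by 0.75 ± 0.07. Glrx5, a mitochondrial glutaredoxin of iron-sulfur cluster assembly, fell by 0.68 ± 0.06.

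NADPH feeds Gsr, Txnrd1 and Nqo1, and 6 of 10 measured genes of its supply rose while 2 fell (median 0.23). Of all genes 27.6% rose and 20.7% fell. Taldo1, transaldolase of the pentose phosphate pathway, had log2 values of 10.62, 10.71 and 10.74 in day 1 cultures, against 9.05, 9.04 and 8.98 in day 0 rings. It rose by 1.66 ± 0.06 and the folate enzyme gene Mthfd2 by 0.88 ± 0.06. The 2 falling genes were Aldh1l2 at -2.11 ± 0.08 and Idh2 at -1.07 ± 0.06.

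In the heme and iron list 6 of 12 rose and 4 fell (median 0.38), where 27.6% of all genes rose and 20.7% fell. Por, the reductase that passes electrons to heme oxygenase, rose by 1.45 ± 0.07. Ftl1, the ferritin light chain that stores the iron released, rose by 1.25 ± 0.06, and the heme transporter gene Slc48a1 by 1.14 ± 0.06. Flvcr2, a transporter gene, fell by 2.56 ± 0.11. Of the biliverdin reductase genes, Blvrb rose by 0.97 ± 0.13 (limma adjusted p = 5.55e-04). Blvra was at 0.07 ± 0.07 (limma adjusted p = 0.475). Both were picked for naming after their values were seen.

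Of 17 measured other targets 10 rose and 2 fell (median 0.42), where 27.6% of all genes rose and 20.7% fell. The lower calls numbered 1 without day 0 replicate 1, day 1 replicate 1 or day 1 replicate 3. They also numbered 1 with median centring and with every row as a feature. The aldo-keto reductase gene Akr1b8 had log2 values of 10.23, 10.29 and 10.40 in day 1 cultures, against 5.67, 5.55 and 5.44 in day 0 rings. That is a change of 4.76 ± 0.08, close to that of Hmox1. Ptgr1, which reduces reactive alkenals, rose by 2.06 ± 0.07, Gstp1, a glutathione transferase, by 2.05 ± 0.06 and Mgst1, its membrane-bound relative, by 1.87 ± 0.10. Gsta4 fell by 0.95 ± 0.07. Genes known as NRF2 targets in other settings did not all rise: Abcc1 (0.01 ± 0.07), Gpx2 (0.06 ± 0.08) and Osgin1 (-0.06 ± 0.06) missed the threshold, with limma adjusted p of 0.892, 0.545 and 0.445. Gpx2 (mean 4.69 on day 1 and 4.63 on day 0) and Osgin1 (5.30 and 5.36) lay under the array medians, so a change in them may be missed. All 3 genes were picked for naming after their values were seen.

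**Figure D4:**
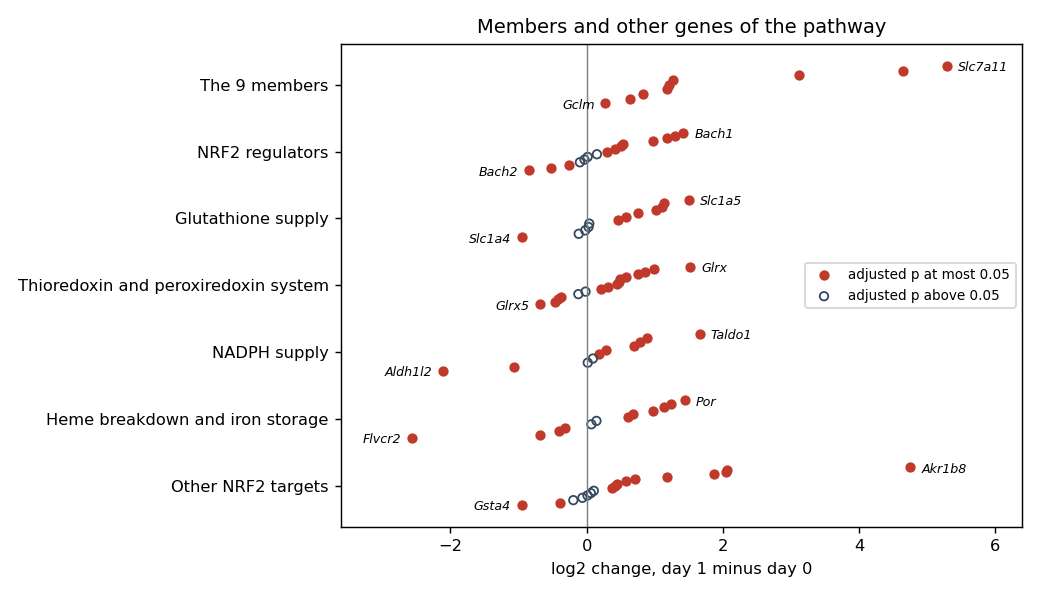
Log2 change, day 1 minus day 0 (horizontal axis), of the 9 genes (top row) and of each measured gene in the 6 other pathway lists, filled in red where the limma adjusted p was at most 0.05 and open otherwise, with the lowest and highest gene of each row named. The 9 genes all lie above 0, whereas each other list holds genes on both sides.

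Genes with symbols of LOC, RGD, AABR or MGC and a digit were left out of the search for nearest profiles. Over the 6 arrays, each expressed as the value minus the gene's day 0 mean, the profiles nearest to Hmox1 were those of Akr1b8 and the urea transporter gene Slc14a1 (root mean square distance 0.19 and 0.20 log2 units). Nearest to Slc7a11 were Chi3l1 (0.12) and the chemokine gene Cxcl13 (0.20), and nearest to Nfe2l2 were Sec11c and Mvp (0.04 each). With 2 groups of 3 arrays, this likeness rests mainly on the size of the change.

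Cell type markers give the setting. All 9 measured smooth muscle markers fell, against 20.7% of all genes, with log2 changes of -5.73 to -1.49. Their mean log2 level was 7.97 to 8.16 in day 1 cultures, against 11.6 to 11.7 in day 0 rings. Contractile markers defined the tissue in fresh rings (calponin, Cnn1, averaged 6.86 on day 1 and 12.6 on day 0). In pooled tissue, fewer cells of a type and less RNA per cell cannot be told apart. Macrophages are a known site of Hmox1. Of 11 measured macrophage markers 3 rose and 4 fell, where 27.6% of all genes rose and 20.7% fell, with mean levels of 8.26 to 8.38 on day 1 and 8.20 to 8.31 on day 0. Cd68 rose by 1.70 ± 0.06 and Lyve1 fell by 2.05 ± 0.08. Red cell markers, from a source of heme, fell in 3 of 6 cases (mean levels 4.91 to 4.99 on day 1 and 5.61 to 5.81 on day 0), and the hemoglobin gene Hbb fell by 2.79 ± 0.15. By limma 0 of 10 neutrophil markers passed the adjusted threshold and 2 had an unadjusted p under 0.05. Their mean levels, 4.02 to 4.13 on day 1 and 4.17 to 4.36 on day 0, lay under the array medians, so a change in them may be missed. Lower calls among them numbered 1 with the replicate block, with an intensity trend and robust prior, and without day 0 replicate 1, day 0 replicate 3 or day 1 replicate 3, and 2 without day 1 replicate 1. Endothelial markers rose in 7 of 8 cases and fell in 1 (mean levels 8.20 to 8.34 on day 1 and 7.77 to 7.97 on day 0). Fibroblast markers rose in 3 and fell in 7 of 10, and adipocyte markers fell in 8 of 9. No marker is at 0 on this log2 scale. The part of these cell types in the rise of the 9 genes was not tested.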

How the data were processed

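Total RNA was measured on 6 whole-transcript arrays, 3 of day 1 cultures and 3 of day 0 rings. The authors deposited log2 expression values for 27342 rows, with the scale inferred from their range of 1.32 to 14.2; 200 ng of RNA was biotin-labelled, per the labels' protocols. Per the submitters' processing notes limma was used. Background correction and array normalization: not given in the sources used here. The array medians were 5.87 to 5.95, so values were used as deposited. The number of arrays limits the precision. Pearson correlations across genes were 0.996 to 0.997 within groups and 0.959 to 0.963 between them.

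Rows were named through the array annotation, with symbols updated by gene ID against the GRCr8 gene table. Of the rows, 15097 had 1 symbol, 323 several and 11922 none; the brightest row by mean was kept per gene, giving 14324. The comparison used limma 3.58.1 under R 4.3.3, with lmFit then eBayes, no block, two-sided, and Benjamini-Hochberg adjustment over all genes. Tables and figures were made in Python 3.11.15 (pandas 2.3.3; numpy 2.4.6; matplotlib 3.10.9). The fit was tested on simulated data.

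Members, lists, partner pairs and tests were chosen with earlier results of these data known, so counts over them are descriptions. Genes named are the 9 members, the partner pairs and the 2 nearest profiles of Hmox1, Slc7a11 and Nfe2l2 (LOC, RGD, AABR and MGC symbols left out). So are up to 4 called genes per list with the largest change, plus the largest against the majority (the 2 largest where none passed). Blvra, Blvrb, Abcc1, Gpx2 and Osgin1 are named outside these rules. Alternatives were 2 normalizations, 2 filters on dim genes, 2 other choices of row, a fit over every row, eBayes with trend and robust set, array weights, treat against 1.5-fold, a replicate block, and leaving out each array.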

Additional observations from a re-analysis of the deposited data

How the results depend on the processing

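Of the 9 genes, Slc7a11, Hmox1, Nqo1, Txnrd1, Nfe2l2 and Gclc kept direction and call in every alternative that measured them, with Slc7a11 at 5.22 to 5.36 and Hmox1 at 4.54 to 4.75. Gsr (adjusted p = 1.0), Srxn1 (adjusted p = 0.221) and Gclm missed the threshold of treat against 1.5-fold, a stricter null, and Gclm also in the 4 alternatives given above. Slc7a11 and Srxn1 have no value without genes under the median mean, which drops them. Treat called 827 genes higher and 723 lower, and 21 higher and 5 lower among the pathway lists. Lower calls were 1844 without genes under the median mean, where fewer genes are tested, and 4483 with every row as a feature, where more are. With quantile normalization Slc7a11 gained 4.30 over Slc3a2; the cause was not tested. Keap1, never called, turned to 0.019 with median centring, 0.013 without day 0 replicate 2 and 0.000268 without day 1 replicate 3, and ranged from -0.069 to 0.013 as each array was left out. Nqo2 passed the threshold with quantile normalization (-0.30, adjusted p = 0.00643) and in 5 other alternatives.

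The arrays were treated as sharing only a number: deviations from the group means correlated at 0.011, 0.019 and 0.036 for same-numbered arrays, none above 0.1. Day 1 replicates 2 and 3 correlated best with their own number, and day 1 replicate 1 with day 0 replicate 2 (0.036). With the replicate number as a block 3815 genes were higher and 2871 lower, and all 9 genes were called.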
